A study of Mus musculus with 9 samples.

Results

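The genes described here are 10 genes of major histocompatibility complex (MHC) class I antigen presentation: the heavy chains H2-K1, H2-D1, H2-Q6, H2-Q7, and H2-T23, the light chain B2m, the peptide loading genes Tap1 and Tapbp, the proteasome subunit Psmb8, and the regulator Nlrc5. They were chosen by name, with no measured value in the rule, and all estimated transcript counts of a gene were summed. The 10 genes were found among 54119 genes, and all 10 were among the 16229 genes that passed the filter on low counts. The study sequenced RNA of primary microglia from C57BL/6J mice in 9 libraries, 3 treated with control siRNA, 3 with Chd8 siRNA, and 3 with Tsc2 siRNA, numbered 1 to 3 within each siRNA. The labels give no deletion or transgene for any group. The cells had been shaken off mixed glial cultures of embryonic brain, and siRNA lowers a transcript without removing the gene. The study's results describe LPS stimulation of all 3 groups before sequencing, whereas the sample labels name only the siRNA, so the state of the control cells is given here only as far as these sources go.

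MHC class I molecules carry peptides from the inside of a cell to its surface, where CD8+ T cells read them. Cytosolic proteins are cut by the proteasome, the peptides are pumped into the endoplasmic reticulum by the TAP transporter, and tapasin holds an empty heavy chain with its partner beta-2 microglobulin beside the transporter until a peptide is bound. Microglia, the resident macrophages of the brain, are known to raise these genes in response to interferon, and the NLR protein Nlrc5 acts on the promoters of many of them.

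Of the 10 genes, 8 lie on chromosome 17, which holds the mouse MHC, and the positions given are those of GENCODE on GRCm38. The heavy chain genes were H2-K1 (chr17:33996017-34000347, minus strand), H2-D1 (chr17:35262730-35267499), H2-Q6 (chr17:35424850-35430055), H2-Q7 (chr17:35439155-35443773), and H2-T23 (chr17:36029773-36032855, minus strand). Tapbp (chr17:33915899-33929292), Tap1 (chr17:34187553-34197225), and Psmb8 (chr17:34197721-34201454) lie on the same chromosome, whereas B2m (chr2:122147686-122153083) and Nlrc5 (chr8:94434356-94527272) do not.

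Promoters of class I genes share an enhancer part, with a kappa B site and an interferon-responsive element, and a more proximal part with the X and Y boxes to which the Nlrc5 complex is recruited. The RefSeq table (GRCm38.p6) held a promoter for 9 of the 10 genes, each of 300 bases, from 250 bases before the RefSeq start to 50 bases after it. That start can differ from the GENCODE position given above. Nlrc5 had no entry. The promoters of 5 genes are shown because they separate the heavy chains that differed most between the siRNAs (H2-Q6 and H2-Q7) from a classical heavy chain (H2-K1), the light chain (B2m), and the transporter (Tap1). They are H2-K1 (chr17:34000298-34000597, minus strand), H2-Q6 (chr17:35424600-35424899, plus strand), H2-Q7 (chr17:35438905-35439204, plus strand), B2m (chr2:122147437-122147736, plus strand), and Tap1 (chr17:34187306-34187605, plus strand), each printed 5′ to 3′ on the gene's own strand. Capitals mark exact matches, on either strand, to GGGATTCCC (kappa B), GAANNGAAA (interferon-responsive element), TGACG (the core of the X2 box), or ATTGG (the Y box, an inverted CCAAT). None of these matches overlapped another.
H2-K1: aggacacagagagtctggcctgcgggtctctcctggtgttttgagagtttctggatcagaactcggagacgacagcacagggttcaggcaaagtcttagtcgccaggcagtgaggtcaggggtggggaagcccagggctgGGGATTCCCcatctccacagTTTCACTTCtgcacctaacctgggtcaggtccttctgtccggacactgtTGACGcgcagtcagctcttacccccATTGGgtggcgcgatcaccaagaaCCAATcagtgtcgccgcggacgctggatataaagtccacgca
H2-Q6: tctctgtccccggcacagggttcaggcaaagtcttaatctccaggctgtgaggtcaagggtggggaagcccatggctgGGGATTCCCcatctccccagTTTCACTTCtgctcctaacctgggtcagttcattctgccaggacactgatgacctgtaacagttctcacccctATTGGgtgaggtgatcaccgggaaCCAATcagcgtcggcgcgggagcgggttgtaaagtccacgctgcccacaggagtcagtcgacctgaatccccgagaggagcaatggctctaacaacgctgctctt
H2-Q7: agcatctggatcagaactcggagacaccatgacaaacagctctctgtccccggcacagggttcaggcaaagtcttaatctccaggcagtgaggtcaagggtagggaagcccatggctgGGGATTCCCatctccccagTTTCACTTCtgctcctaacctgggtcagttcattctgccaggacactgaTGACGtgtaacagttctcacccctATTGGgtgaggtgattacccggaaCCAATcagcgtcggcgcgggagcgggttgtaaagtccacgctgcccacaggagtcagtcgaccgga
B2m: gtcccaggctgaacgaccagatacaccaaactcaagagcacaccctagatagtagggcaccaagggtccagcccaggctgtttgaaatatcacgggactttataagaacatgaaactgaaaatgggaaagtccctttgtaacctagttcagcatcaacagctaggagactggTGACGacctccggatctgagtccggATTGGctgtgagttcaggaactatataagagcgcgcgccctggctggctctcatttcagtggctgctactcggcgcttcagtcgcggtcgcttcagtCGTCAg
Tap1: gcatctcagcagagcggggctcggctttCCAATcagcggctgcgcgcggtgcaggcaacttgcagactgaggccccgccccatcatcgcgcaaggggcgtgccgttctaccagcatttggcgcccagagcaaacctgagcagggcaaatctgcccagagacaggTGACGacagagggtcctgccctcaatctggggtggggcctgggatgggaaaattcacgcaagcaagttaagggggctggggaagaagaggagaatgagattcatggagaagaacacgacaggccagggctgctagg

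GGGATTCCC was found in 4 of the 9 promoters (H2-K1, H2-D1, H2-Q6, and H2-Q7) and in 116 of 32851 promoters of the whole table, or 0.353%. GAANNGAAA was found in the same 4 promoters and in 7.52% of the table. TGACG was found in 5 promoters (H2-K1, H2-D1, H2-Q7, B2m, and Tap1) and in 20.8% of the table, and ATTGG in 8 promoters and in 37.4% of the table. The promoters of H2-Q6 and H2-Q7 thus differed in these letters at the X2 core, which matched in H2-Q7 and not in H2-Q6. The promoter of H2-T23 held only a Y box match, and the RefSeq window of Psmb8 (chr17:34197945-34198244) held none of the 4 motifs. That window lies inside the gene as placed by GENCODE, as do those of H2-D1 (chr17:35262844-35263143) and Tapbp (chr17:33919228-33919527). The bases before the GENCODE starts of these genes were therefore not searched. A match describes letters, and no binding was measured here.

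To compare levels between genes, counts were divided by the library total and by transcript length in kilobases (CPM per kilobase, where CPM is a count scaled to a common library size). On this scale B2m was highest in the control siRNA group (2060 ± 130, SD, n = 3), followed by H2-D1 (1502 ± 152) and H2-K1 (710 ± 90.9). These 3 are the light chain and the classical heavy chains that present peptides on most cells. Tapbp (273 ± 14.2) and Psmb8 (257 ± 27.4) came next and did not differ beyond their spread, likewise Tap1 (161 ± 30.9) and H2-T23 (155 ± 8.47). Nlrc5 (91.5 ± 3.14) was above H2-Q6 (49.5 ± 31.8) and H2-Q7 (29.1 ± 15.1), the Qa-2 heavy chains, whose spreads overlapped each other and, for H2-Q6, reached up toward that of Nlrc5. With the length of the most counted transcript in place of the weighted mean length, H2-D1 had 959, Psmb8 345, and Nlrc5 84.2 CPM per kilobase, and Psmb8 then stood above Tapbp (266).

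The heavy chains resemble each other, and salmon divides the reads that fit several transcripts. Of all 31-base words in the most counted coding transcript, 50.3% in H2-Q6, 48.4% in H2-T23, 34.5% in H2-Q7, 27.5% in H2-D1, and 23.4% in H2-K1 also occurred in another gene. The gene that shared most was H2-Q4 for H2-Q6, H2-Q5 for H2-Q7, and H2-D1 for H2-K1. B2m, Psmb8, and Nlrc5 shared no such word, and Tap1 and Tapbp shared 1.51% and 3.2%. The division of counts between single heavy chains is therefore less certain than their sum, and that sum is also reported. H2-Q7 had 62.5% of its counts on 1 transcript annotated as a retained intron, and all counts of H2-Q6 fell on 1 coding transcript. Tap1 overlaps Psmb9 on the opposite strand and Tapbp overlaps Zbtb22 on its own strand, and whether the quantification used strand is not given in the sources used here.

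Library depth ranged from 16913005 to 33213477 counts, and the detection floor of 3 counts amounted to 0.0903 to 0.177 CPM. These floors cover counting error only, and the 10 class I genes were far above them. Chd8 transcripts were lower in all 3 Chd8 siRNA libraries (56.5 ± 26.4 CPM against 103 ± 13.0 in control, SD, n = 3). Tsc2 transcripts were lower in all 3 Tsc2 siRNA libraries, by unequal amounts: the ratio to the control library was 0.602, 0.768, and 0.937 at replicate numbers 1, 2, and 3. Both differences have an exact permutation p = 0.1, the lower bound of that test at this group size. A call required both an adjusted p (FDR) under 0.05 and a change of 1.5-fold or more. In edgeR neither gene was called when siRNA alone was fitted (adjusted p of 1.00 each). When the replicate number entered the fit as a block, a term that takes up the average difference between libraries with different numbers, Chd8 was called lower in Chd8 siRNA, with a log2 fold change of -0.93 ± 0.14 (SE) and an adjusted p of 0.00781, against 0.283% of all genes called lower. That call was made in 3 of 6 fits that each left out 1 control or Chd8 siRNA library, and was lost without control replicate 2, control replicate 3, or Chd8 siRNA replicate 2 (adjusted p up to 0.0806). Tsc2 in Tsc2 siRNA was not called with the block, with -0.39 ± 0.12 and an adjusted p of 0.219. The 14 microglia markers were all in the table and 13 passed the filter. Their summed level was 3258 to 4011 CPM in control, 3542 to 4424 in Chd8 siRNA, and 4145 to 4245 in Tsc2 siRNA, so that the Tsc2 siRNA libraries all lay above the control libraries. Summed astrocyte markers were 14.6 to 106 CPM in control, with the 106 in replicate 3, 13.6 to 47.1 in Chd8 siRNA, and at most 51.0 in Tsc2 siRNA. Summed fibroblast and vessel markers were 53.7 to 111 CPM in control, 61.9 to 71.8 in Chd8 siRNA, and 55.2 to 95.6 in Tsc2 siRNA. Summed oligodendrocyte lineage markers were 20.0 to 26.5 CPM in control, 19.3 to 27.4 in Chd8 siRNA, and 11.8 to 24.5 in Tsc2 siRNA. Summed neuron markers stayed at or below 19.6 CPM and lymphocyte markers at or below 3.84 CPM in all 9 libraries, with the natural killer cell marker Ncr1 at 0. In bulk RNA, fewer cells of a type and less RNA per cell cannot be told apart.

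The first question was whether Tsc2 knockdown altered these genes. The class I heavy chains and their light chain were higher in Tsc2 siRNA-treated microglia than in control, by 1.19-fold to 2.08-fold in group means, whereas the genes that make and load peptides and the regulator Nlrc5 stayed between 0.962-fold and 1.04-fold. H2-Q6 and H2-Q7 differed most. In the fit of siRNA alone none of the 10 was called, and H2-Q6 and H2-Q7 were called with the block.

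**Figure D1:**
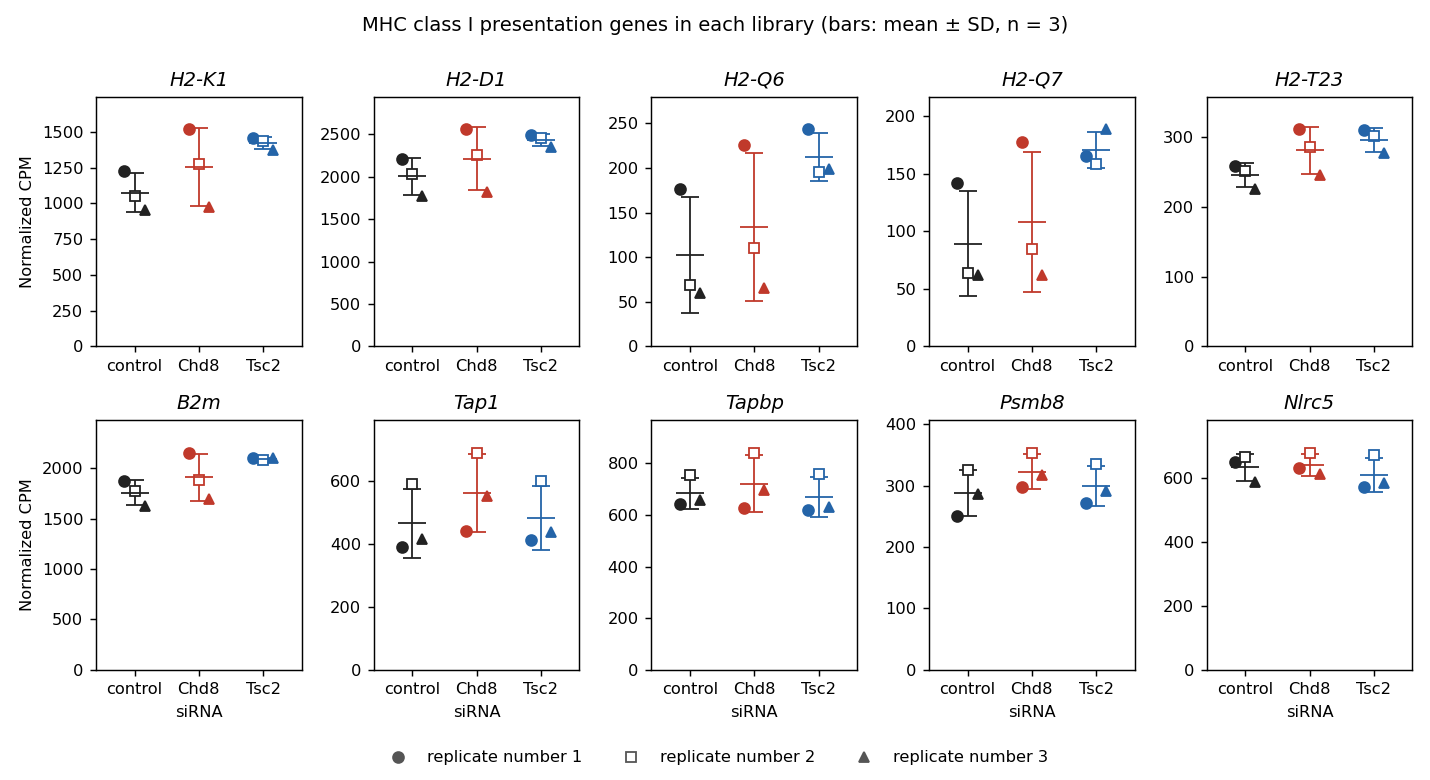
Normalized CPM (y axis, from 0) of each gene in the 9 libraries, by siRNA (x axis). Symbols give the replicate number and bars the mean ± SD of 3 libraries. For the 5 heavy chains and B2m, all 3 Tsc2 siRNA libraries lie above all 3 control libraries, and for Tap1, Tapbp, Psmb8, and Nlrc5 the groups overlap.

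H2-Q6 encodes a Qa-2 heavy chain, a class Ib molecule with little variation between individuals. Its normalized level was 177, 69.3, and 60.4 CPM in control replicates 1, 2, and 3, 226, 111, and 65.4 CPM in Chd8 siRNA, and 244, 195, and 199 CPM in Tsc2 siRNA. All Tsc2 siRNA libraries were above all control libraries, and control replicate 1 stood well above the other 2 controls. The ratio of Tsc2 siRNA to control was 1.38, 2.81, and 3.29 at replicate numbers 1, 2, and 3. Without the block the log2 fold change was 1.06 ± 0.48 (SE) with an adjusted p of 1.00 in edgeR's quasi-likelihood test. With the block it was 1.26 ± 0.20 with an adjusted p of 0.00993.

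H2-Q7 encodes a second Qa-2 heavy chain. Its level was 142, 63.9, and 62.0 CPM in control, 178, 84.7, and 62.1 CPM in Chd8 siRNA, and 165, 158, and 189 CPM in Tsc2 siRNA. Again the Tsc2 siRNA libraries did not overlap with control, and 1 Chd8 siRNA library (replicate 1) reached their range. The ratio to control was 1.16, 2.48, and 3.05 at replicate numbers 1, 2, and 3. The log2 fold change was 0.94 ± 0.41 (SE) without the block, with an adjusted p of 1.00 and an unadjusted p of 0.0444 in edgeR. With the block it was 1.09 ± 0.21, with an adjusted p of 0.0298. In both Qa-2 genes the ratio was smallest at replicate number 1, where the control library was already high and where the ratio of Tsc2 itself was lowest.

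The 2 calls with the block stood against 31 genes called higher among all 16229, or 0.191%. Without the fold threshold 3 of the 10 passed, against 0.376% of all genes, and DESeq2 with the block called 1, H2-Q6, against 0.492% of the genes it gave an adjusted p. Without the fold threshold DESeq2 with the block passed 5 of the 10, against 1.7% of those genes: H2-K1, H2-D1, H2-Q6, H2-T23, and B2m. The edgeR calls depended on single libraries. H2-Q6 was called in 3 of 6 fits that each left out 1 control or Tsc2 siRNA library, and lost its call without control replicate 2, control replicate 3, or Tsc2 siRNA replicate 2, with log2 fold changes of 0.92 to 1.61 over the 6 fits. H2-Q7 was called in 2 of 6, lost its call also without Tsc2 siRNA replicate 3, and ranged from 0.72 to 1.49. With coding transcripts only, neither passed (adjusted p of 0.0584 and 0.165 with the block in edgeR). When the counts of both genes were added before the fit, which removes the division of reads between them, the log2 fold change was 1.18 ± 0.20 (SE) with an adjusted p of 0.0124 with the block, and 1.00 with an adjusted p of 1.00 without it.

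H2-K1 and H2-D1 encode the classical heavy chains. The level of H2-K1 was 1225, 1052, and 951 CPM in control, 1519, 1274, and 976 CPM in Chd8 siRNA, and 1457, 1434, and 1375 CPM in Tsc2 siRNA. H2-D1 had 2209, 2027, and 1766 CPM in control, 2557, 2249.9, and 1821 CPM in Chd8 siRNA, and 2488, 2455, and 2346 CPM in Tsc2 siRNA. The 3 Tsc2 siRNA libraries were close together for both genes and above every control. H2-K1 differed from control by a log2 fold change of 0.40 ± 0.17 (SE) without the block (edgeR, unadjusted p of 0.0361 and adjusted p of 1.00). With the block the value was 0.41 ± 0.082 with an adjusted p of 0.0316, below the 1.5-fold threshold of a call. H2-D1 had 0.28 ± 0.15 without the block and 0.29 ± 0.068 with it, the latter with an adjusted p of 0.0797 in edgeR and 0.0145 in DESeq2.

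H2-T23 encodes Qa-1, which presents signal peptides of other class I chains to natural killer cell receptors. Its level was 258, 252, and 225 CPM in control, 311, 285, and 245 CPM in Chd8 siRNA, and 310.0, 300.4, and 277 CPM in Tsc2 siRNA. The ratio of Tsc2 siRNA to control was even across replicate numbers, at 1.20, 1.19, and 1.23. B2m, which all these heavy chains need to reach the surface, had 1870.2, 1775, and 1628 CPM in control, 2154, 1883, and 1689 CPM in Chd8 siRNA, and 2097, 2082, and 2097 CPM in Tsc2 siRNA. The Tsc2 siRNA libraries were again higher than control for both genes, with no overlap. The log2 fold changes with the block were 0.27 ± 0.070 (SE) for H2-T23 and 0.26 ± 0.065 for B2m, each with an adjusted p of 0.108 in edgeR. In DESeq2 with the block the adjusted p was 0.0108 for H2-T23 and 0.0285 for B2m, and neither gene was called by either tool, since both changes were below 1.5-fold.

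In all, 6 of the 10 genes had every Tsc2 siRNA library above every control library, against 3.88% of all genes tested. These 6 moved together over the 9 libraries (Pearson r of 0.785 to 0.991) and were compared with the same 3 controls. They are therefore not 6 independent results. For each of the 6 the exact permutation test gave p = 0.1, the smallest value it can give. With siRNA alone in the edgeR fit, 0 of the 10 were called, as were 0.0% of all genes, and the unadjusted p was under 0.05 for 2 of the 10 and for 2.59% of all genes. The median log2 fold change of the 10 was 0.26, compared with -0.018 over all genes tested, and 8 of 10 were above 0, compared with 47.6% of all genes. Divided by the summed microglia markers of the same library, H2-K1, H2-D1, H2-Q6, and H2-Q7 still had all Tsc2 siRNA libraries above all control libraries, while H2-T23 and B2m overlapped, and 1.39% of all genes were higher without overlap on this scale. H2-Q6 was 1.75% to 4.41% of that sum in control and 4.60% to 5.81% in Tsc2 siRNA, and Nlrc5 was 16.2% to 18.0% in control and 13.7% to 15.8% in Tsc2 siRNA, all below control, as were 8.66% of all genes. The part of the microglia and astrocyte marker differences in the class I values was not tested.

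**Figure D2:**
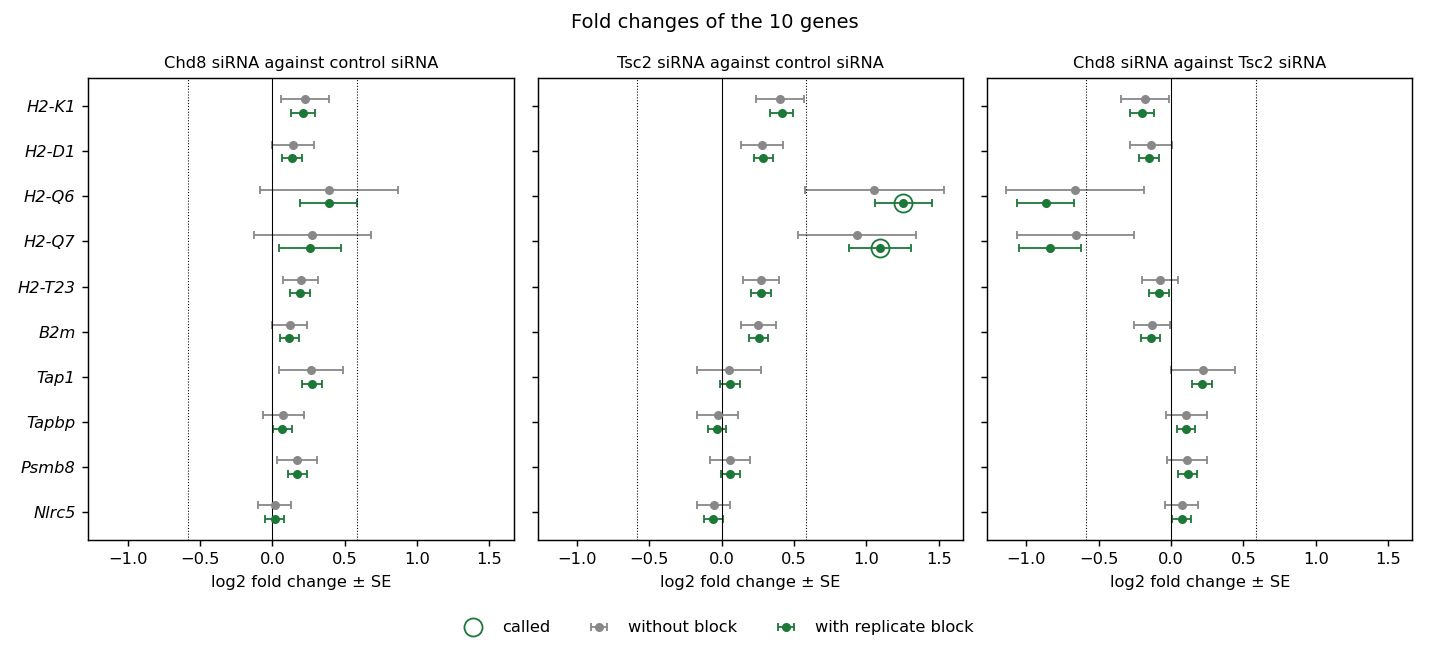
Log2 fold change ± SE (x axis) of the 10 genes in the 3 comparisons, from edgeR with siRNA alone (gray) and with the replicate block (green). Dotted lines mark a 1.5-fold change and open circles the calls, which are H2-Q6 (1.26) and H2-Q7 (1.09) in Tsc2 siRNA against control siRNA.

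Tap1, Tapbp, and Psmb8 make and load peptides. Tap1, a subunit of the peptide transporter, had 391, 592, and 416 CPM in control, 442, 691, and 554 CPM in Chd8 siRNA, and 412, 599, and 437 CPM in Tsc2 siRNA. In each group replicate 2 was highest, and each Tsc2 siRNA library lay near the control library of its number, with ratios of 1.05, 1.01, and 1.05. Tapbp, which encodes tapasin, had 642, 754, and 657 CPM in control, 627, 842, and 697 CPM in Chd8 siRNA, and 621, 759, and 632 CPM in Tsc2 siRNA. Psmb8, the immunoproteasome subunit LMP7, had 250.3, 326, and 287 CPM in control, 297, 354, and 318 CPM in Chd8 siRNA, and 271, 336, and 291 CPM in Tsc2 siRNA. The control and Tsc2 siRNA groups overlapped in all 3 genes. Their log2 fold changes in Tsc2 siRNA with the block were 0.055 ± 0.069, -0.032 ± 0.063, and 0.059 ± 0.068 (SE), with adjusted p in edgeR of 0.858 for Tap1, 0.917 for Tapbp, and 0.841 for Psmb8.

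Nlrc5, the transactivator of class I genes, had 648, 666, and 586 CPM in control, 629, 679, and 612 CPM in Chd8 siRNA, and 573, 670.0, and 584 CPM in Tsc2 siRNA. The 3 groups overlapped. The log2 fold change in Tsc2 siRNA was -0.056 ± 0.11 (SE) without the block and -0.058 ± 0.064 with it, with an adjusted p of 0.836 with the block in edgeR. On the CPM scale no difference between Tsc2 siRNA and control was detected for Tap1, Tapbp, Psmb8, or Nlrc5, which at this spread does not show that they were equal.

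Because reads can move between heavy chains, the 26 class I heavy chain genes of the table in the lists used here were also added up per library. The sum was 4889, 4188, and 3697 CPM in control, 5762, 4839, and 3826 CPM in Chd8 siRNA, and 5595, 5453, and 5227 CPM in Tsc2 siRNA. All Tsc2 siRNA libraries exceeded all controls, and the Chd8 siRNA libraries overlapped with both groups. In edgeR the sum had a log2 fold change of 0.35 without the block and of 0.36 ± 0.072 (SE) with it, the latter with an adjusted p of 0.0324 and below 1.5-fold. H2-K1 and H2-D1 made up 70.2% to 73.5% of the sum in all 9 libraries. H2-Q6 and H2-Q7 together made up 6.52%, 3.18%, and 3.31% in control, 7.01%, 4.04%, and 3.33% after Chd8 knockdown, and 7.31%, 6.48%, and 7.42% after Tsc2 knockdown. Control and Tsc2 siRNA overlapped in this share only through control replicate 1.

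The second question was whether Chd8 knockdown altered the same genes, measured against the same 3 control libraries. All 10 genes had a log2 fold change above 0 in Chd8 siRNA, from 0.015 to 0.39 with a median of 0.18, against 47.8% of all genes above 0, and none was called. With coding transcripts only, 9 of 10 were above 0, Nlrc5 being the exception. Leaving out Chd8 siRNA replicate 1 turned H2-Q6 to -0.22 and H2-Q7 to -0.29, leaving out Chd8 siRNA replicate 2 turned Tapbp to -0.047, and leaving out control replicate 3 turned Nlrc5 to -0.037. Without Chd8 siRNA replicate 2, the remaining Nlrc5 values in that group (629 and 612 CPM) also lie below the control mean of 633 CPM. The groups overlapped in all 10 genes, whereas 4.16% of all genes were higher without overlap. With siRNA alone 0 of 10 genes and 0.0% of all genes were called, and with the block 0 of 10 and 0.246% were called higher. The lowest adjusted p with the block in edgeR was 0.0802, for Tap1 with a log2 fold change of 0.27 ± 0.069 (SE). DESeq2 with the block gave Tap1 an adjusted p of 0.00518, also below 1.5-fold, against 5.43% of the genes with an adjusted p that passed in that direction. The ratios of Tap1 to control were 1.13, 1.17, and 1.33 at replicate numbers 1, 2, and 3. Of the 10 genes, 8 were higher at all 3 replicate numbers, which held for 17.7% of all genes, and the exceptions were Tapbp and Nlrc5, each lower at number 1. The heavy chains and B2m moved together, so these counts are not of independent genes. The spread of the heavy chains within the Chd8 siRNA group was wide: H2-K1 had an SD of 272 CPM in Chd8 siRNA compared with 42.4 CPM in Tsc2 siRNA, and replicate 3 was near the control library of its number for H2-K1 (ratio 1.03), H2-D1 (1.03), and H2-Q7 (1.00).

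**Figure D3:**
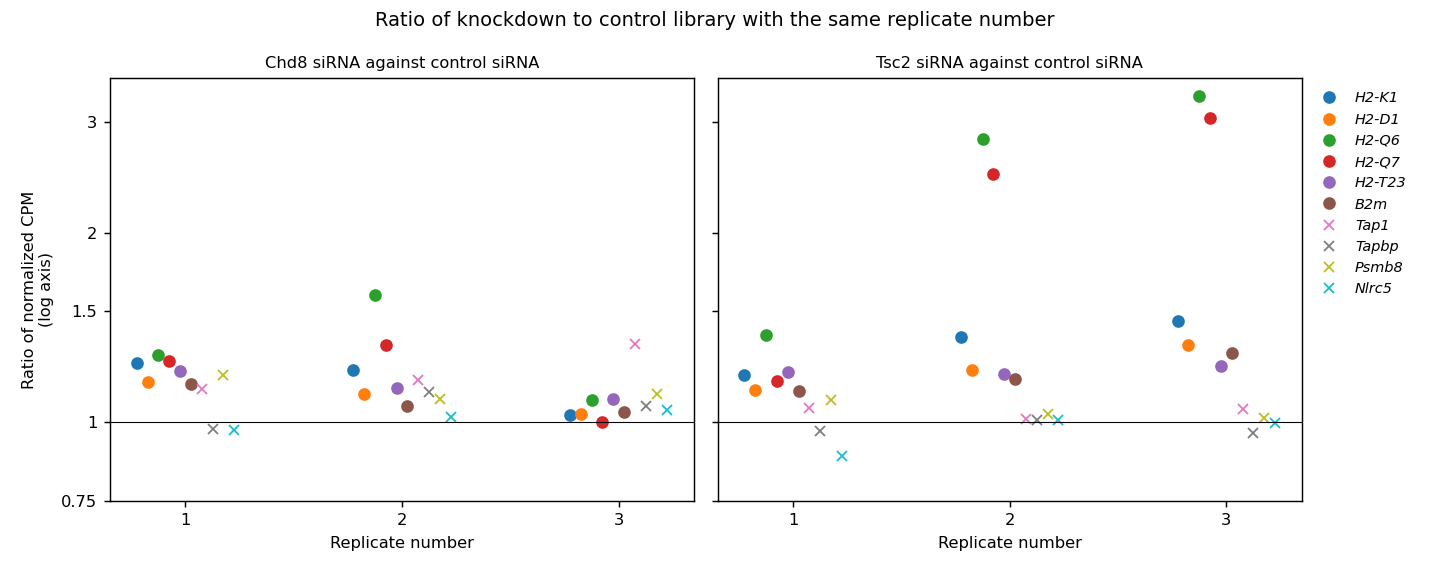
Ratio of normalized CPM (y axis, log scale) of each knockdown library to the control library with the same replicate number (x axis), with circles for heavy chains and B2m and crosses for the other 4 genes. In Tsc2 siRNA, H2-Q6 (1.38, 2.81, 3.29) and H2-Q7 (1.16, 2.48, 3.05) stand above the other genes at numbers 2 and 3, and in Chd8 siRNA no gene exceeds 1.60.

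The third comparison set both knockdowns against each other, without the control libraries in the contrast. None of the 10 genes was called without or with the block, against 0.0% and 0.222% of all genes. The heavy chains and B2m were lower in Chd8 siRNA than in Tsc2 siRNA on average, and the other 4 genes were higher. The lowest adjusted p with the block was 0.0843 in edgeR, for H2-Q6 with a log2 fold change of -0.87 ± 0.20 (SE), and H2-Q7 had -0.83 ± 0.21 with an adjusted p of 0.125. A difference between the knockdowns in the Qa-2 genes is therefore not shown by this test, although the call was made in Tsc2 siRNA only. At replicate number 1 the 2 knockdowns were alike, with Chd8 to Tsc2 ratios of 0.929 for H2-Q6 and 1.08 for H2-Q7, and at number 3 both ratios were 0.329.

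The replicate number also went with much of the variation. It was associated with 7 of the 10 genes at an FDR of 0.05 in edgeR, against 25.1% of all genes. H2-T23 (adjusted p of 0.0518), B2m (0.122), and Nlrc5 (0.120) did not pass. By their means over the siRNA groups, the heavy chains and B2m were highest in replicate 1 (H2-Q6 with 216, 125, and 108 CPM over numbers 1, 2, and 3), although H2-Q7 and B2m were highest in replicate 3 within Tsc2 siRNA. Tap1, Tapbp, Psmb8, and Nlrc5 were highest in replicate 2 in every siRNA group (Tap1 with 415, 628, and 469 CPM). The siRNA accounted for 40.6% to 55.2% of the variation of log2 CPM in the heavy chains and B2m and for 8.39% to 23.1% in the other 4 genes, compared with a median of 18.1% over all genes. The replicate number accounted for 28.3% to 45.5% and for 70.4% to 85.8%, compared with a median of 42.0%. The replicates are different cultures, and whether libraries of different siRNAs with the same number share a culture or a day is not given in the sources used here.

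**Figure D4:**
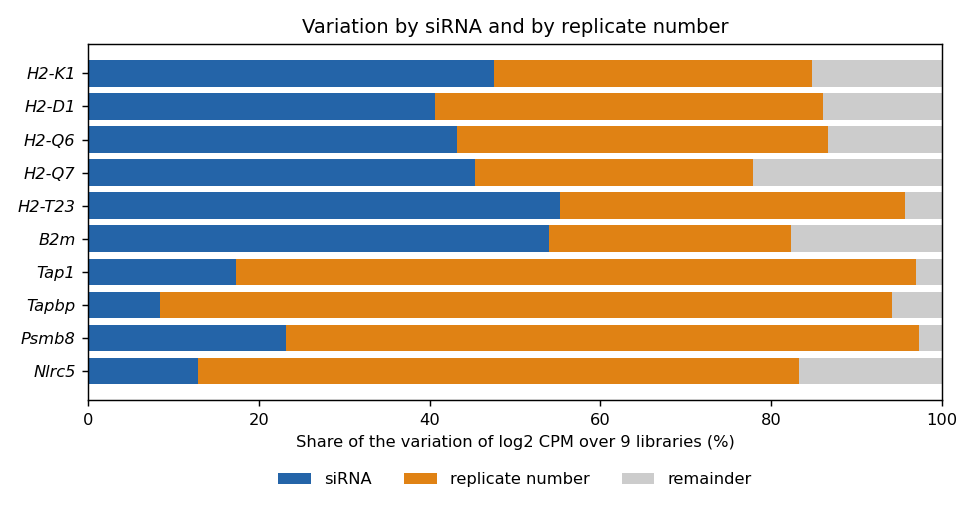
Share (x axis, percent) of each gene's variation in log2 CPM over 9 libraries that went with the siRNA, with the replicate number, and with neither. The siRNA share lies between 40.6% and 55.2% for the heavy chains and B2m and between 8.39% and 23.1% for Tap1, Tapbp, Psmb8, and Nlrc5.

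The genes were also compared by how they moved together across the 9 libraries. Among the heavy chains and B2m, the 15 pairs had Pearson r of log2 CPM from 0.785 to 0.991. Among Tap1, Tapbp, Psmb8, and Nlrc5, the 6 pairs had r from 0.569 to 0.951. Between these groups the 24 pairs had r from -0.474 to 0.122, with a median of -0.11. With replicate-number means taken out, the first range was 0.791 to 0.995, the second 0.0999 to 0.837, and that between the groups -0.491 to 0.522. The heavy chains and B2m then still stood apart, whereas the range among Tap1, Tapbp, Psmb8, and Nlrc5 overlapped with the range between the groups, and H2-T23 with Psmb8 had the 0.522. These are descriptions over 9 libraries that share siRNA groups and replicate numbers, and heavy chains also share reads, although B2m does not. The genes most like the mean of the 10, among 6137 genes with at least 10 CPM, were Stk4 (r = 0.989), Tpm3 (0.977), Spi1 (0.973), Lyn (0.969), and Gsk3a (0.961) over the 9 libraries.

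**Figure D5:**
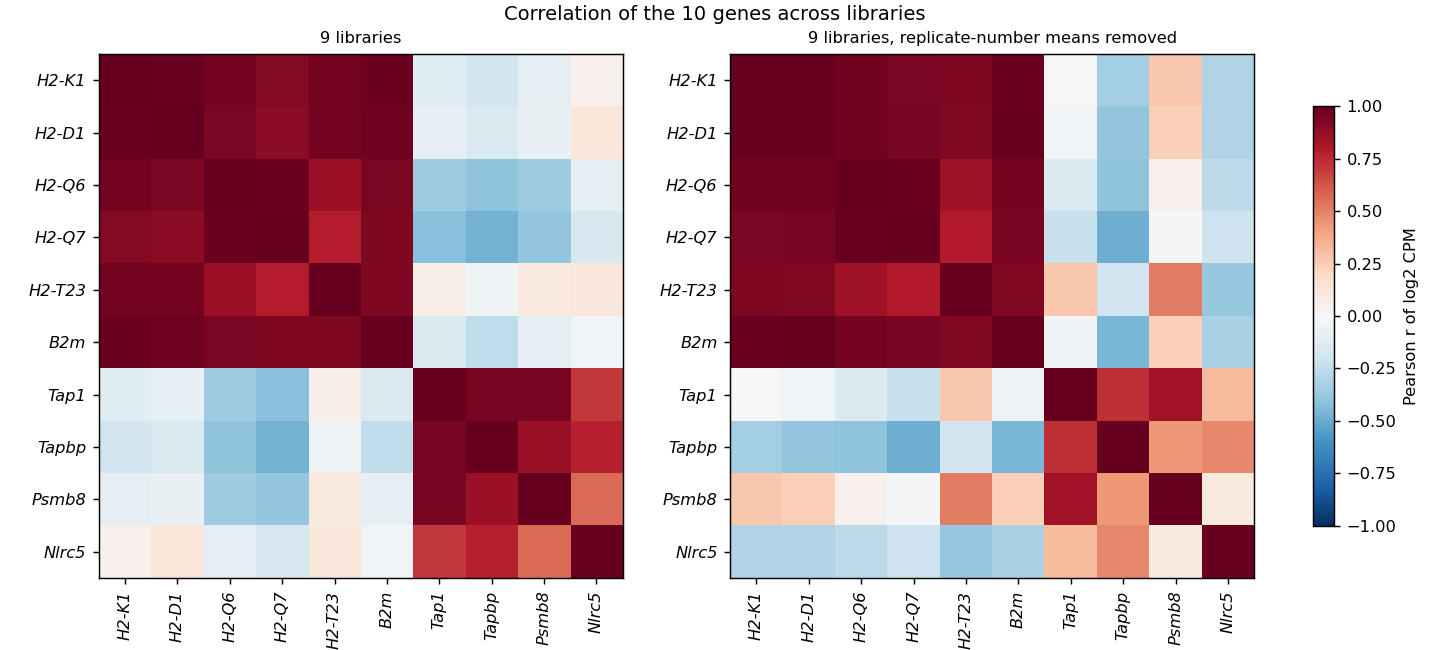
Pearson r of log2 CPM between each pair of the 10 genes over 9 libraries (left) and after removal of replicate-number means (right), from -1 (blue) to 1 (red). The heavy chains and B2m form 1 block (0.785 to 0.991, left), and Tap1, Tapbp, Psmb8, and Nlrc5 another (0.569 to 0.951, left).

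Other genes of the pathway were read from lists by role. Of 24 other class I heavy chain genes listed, 10 were tested. None was called in Tsc2 siRNA, against 0.0% of all genes without the block and 0.191% called higher with it. Of the 10, 7 were above 0 with a median log2 fold change of 0.18, against 47.6% of all genes, and 3 had all Tsc2 siRNA libraries above all controls, against 3.88%. H2-Q4, a further Qa region chain and the one that shares most sequence with H2-Q6, was 336, 261, and 244 CPM in control and 364, 381, and 352 CPM in Tsc2 siRNA, with a log2 fold change of 0.40 ± 0.092 (SE) and an adjusted p of 0.0708 in edgeR with the block. H2-T22, a class Ib chain, was 231 ± 59.9 CPM in control and 270.5 CPM on average in Tsc2 siRNA, with an adjusted p of 0.235 in edgeR with the block. H2-M3, which presents formylated bacterial peptides and was singled out after its values were seen, was the only one of the 10 under an FDR of 0.05 with the block: 34.4, 30.2, and 21.2 CPM in control, 42.1, 43.2, and 40.5 CPM in Tsc2 siRNA, and a log2 fold change of 0.58 ± 0.12 (SE) with an adjusted p of 0.0490 in edgeR, just under 1.5-fold.

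Among 9 tested genes for class I-like molecules, 1 fell in Tsc2 siRNA with the block, against 0.197% of all genes: Procr, which encodes the endothelial protein C receptor. It was 45.1, 54.4, and 56.4 CPM in control and 35.9, 24.5, and 21.7 CPM in Tsc2 siRNA, with no overlap and a log2 fold change of -0.94 ± 0.17 (SE) and an adjusted p of 0.0160 in edgeR, which was 1.00 without the block. None of 9 peptide loading and trimming genes, 6 immunoproteasome and activator genes, 3 constitutive catalytic subunits, 7 cytosolic peptidases, and 15 transcription factors acting on class I genes was called in any comparison without or with the block. Of all genes, 0.0% were called in each comparison without the block, and with it 0.53% in Chd8 siRNA against control, 0.388% in Tsc2 siRNA against control, and 0.222% in Chd8 siRNA against Tsc2 siRNA, so that a count of 0 in these lists is near the background. Their median log2 fold changes in Tsc2 siRNA without the block were -0.00093, 0.16, 0.081, 0.13, and -0.0042. Psme1, which encodes a subunit of the proteasome activator PA28, was 327 CPM on average in control and 370 CPM in Tsc2 siRNA, and Hspa5, an endoplasmic reticulum chaperone, 724 and 796 CPM, with adjusted p of 0.361 and 0.477 in edgeR with the block. The other most counted genes of these lists, Fcgrt, Calr, Psme2, Psmb6, Psmb7, Tpp2, Lap3, Nfkb1, and Stat2, were not called either.

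A further list held myeloid cell receptors from families that include class I receptors. Whether each of them binds class I was not measured. Among 5 tested genes of this list, 1 rose in Tsc2 siRNA with the block, against 0.191% of all genes. That gene was Pirb, an inhibitory receptor. It was 229, 93.0, and 39.4 CPM in control and 295, 119, and 90.6 CPM in Tsc2 siRNA. The groups overlapped, replicate number 1 was the highest in both, and each Tsc2 siRNA library was above the control library of its number. The log2 fold change was 0.64 ± 0.13 (SE) with the block, with an adjusted p of 0.0369 in edgeR, and 0.48 ± 0.72 without it, with an adjusted p of 1.00. Lilr4b and Lilrb4a, the most counted genes of the list, were not called.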

How the data were processed

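Transcripts of primary mouse microglia were sequenced in 9 libraries. The authors quantified reads with Salmon 0.14.1 on mm10 and deposited estimated counts per transcript, without normalization or pooling, and the annotation release is not given in the sources used here. Between 26.8% and 32.1% of values in a library were not whole, and values were rounded. Columns were assigned to samples through the descriptions in the labels. Transcripts were summed to genes with GENCODE M21, and 1096 of 140948 transcripts, with 0.27% of counts, had no gene.

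Genes were tested with edgeR 4.0.16 in R 4.3.3 (quasi-likelihood test, filterByExpr, TMM) on all 9 libraries with siRNA as the factor, and p-values were adjusted over 16229 genes by the Benjamini-Hochberg method. A call needs an FDR of 0.05 and a 1.5-fold change. For single genes, an exact permutation test (two-sided) was run on log2(CPM + 0.5). Libraries with the same replicate number deviated together from their group means (r of 0.338 to 0.629 over 9 pairs, compared with -0.461 to 0.056 over 18 pairs of other numbers), so the fit with the number as a block is given beside results that it changes. Deviations within a group sum to 0, so negative r for other numbers follows from positive r for the same number. The comparison with other numbers therefore adds no separate support. The pairing comes from the sample labels and this check, since the text does not say whether one number is one culture. Replicates of one siRNA came from different animals, per the methods. The labels name a stranded kit, and the methods name another preparation.

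The genes named are the 10 genes, both siRNA targets, every listed gene called in any comparison without or with the block, the 2 highest genes of each pathway list, and the 5 genes most like the mean of the 10, and values are printed for those a result turns on. H2-M3 falls outside this rule. The genes and lists were chosen with earlier results of these data known. Alternatives were DESeq2 1.42.0, limma-voom (limma 3.58.1), other scaling and filters, coding transcripts only, summed heavy chains, 2 groups only, and each library left out. The tests were also run on simulated counts drawn from the fit with the block, which cannot decide between the fits with and without it. No result here rests on that run. Figures and tables used Python 3.11.15. Protein sequences were not used here.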

Additional observations from a re-analysis of the deposited data

How the results depend on the processing

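Without the block, 0 of 10 genes were called in Tsc2 siRNA against control under every alternative run. The counts of called genes were 2 with the replicate block, 3 with the block and no fold threshold, 1 with DESeq2 and the block (H2-Q6, adjusted p of 0.0127), 1 with H2-Q6 and H2-Q7 summed and the block, 2 with the block and 2 groups only, an alternative chosen after seeing the data, and 0 with the block and coding transcripts only (lowest adjusted p of 0.0584). When each library was left out with the block, the count ranged from 0 to 2 in this comparison and from 0 to 2 in Chd8 siRNA against Tsc2 siRNA, where the 2 were called without Tsc2 siRNA replicate 1. The block changed no other call of the 10 genes. The log2 fold change of Nlrc5 in Chd8 siRNA turned to -0.027 without a scaling factor, to -0.0021 with coding transcripts only, and to -0.00050 with these and the block, and the cause was not tested. Over fits with 1 library left out, values crossed 0 in Chd8 siRNA against control for H2-Q6 (-0.22 to 1.05), H2-Q7 (-0.29 to 0.78), Tapbp (-0.047 to 0.17), and Nlrc5 (-0.037 to 0.056), and with the block for H2-Q7 (-0.015) and Nlrc5 (-0.0093 and -0.00071). They did so in Tsc2 siRNA against control for Tap1 (-0.13 to 0.26), Tapbp (-0.13 to 0.049), and Psmb8 (-0.031 to 0.16), and in Chd8 siRNA against Tsc2 siRNA for H2-T23 (-0.16 to 0.0068) and Tapbp (-0.019 to 0.20). All 10 genes were far above the floor of 3 counts in every library. With 3 libraries per group the exact permutation test cannot go below 0.1.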

Other observations

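Genes of the interferon response were measured in the same libraries, and their part in the class I values was not tested. All 24 listed genes were tested, and 23 were above 0 in Chd8 siRNA and 21 in Tsc2 siRNA, against 47.8% and 47.6% of all genes, with median log2 fold changes of 0.18 and 0.10. None was called with siRNA alone, and 1 was called with the block in each knockdown, against 0.246% and 0.191% of all genes called higher. That gene was Ifi27l2a, an interferon-induced gene, with 48.9, 57.8, and 38.6 CPM in control, 83.2, 93.5, and 56.8 CPM in Chd8 siRNA, and 90.8, 98.2, and 71.3 CPM in Tsc2 siRNA. With the block and no fold threshold, 5 of the 24 were under an FDR of 0.05 in Chd8 siRNA, against 0.629% of all genes in that direction, and 1 in Tsc2 siRNA, against 0.376%. The log2 fold changes of Ifi27l2a with the block were 0.67 ± 0.089 (SE) and 0.85 ± 0.089, with adjusted p of 0.00346 and 0.000549 in edgeR, and both comparisons use the same 3 control libraries.

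Ifnb1, which encodes interferon beta, was 6.75, 9.36, and 15.4 CPM in control, 13.6, 30.6, and 31.9 CPM in Chd8 siRNA, and 6.36, 23.5, and 41.9 CPM in Tsc2 siRNA. It was the 1 gene called among 9 tested genes for interferon, interferon receptors, and receptor signaling in Chd8 siRNA with the block, against 0.246% of all genes called higher. Its log2 fold change was 1.25 ± 0.24 (SE) with an adjusted p of 0.0216 in edgeR. Without the block its adjusted p was 1.00, and in Tsc2 siRNA with the block it was 0.101. The receptor-associated kinases Jak1 and Jak2, the most counted genes of that list, were not called. Ifit2 and Rsad2, antiviral interferon targets, were at 4313 ± 822 and 9301 ± 1794 CPM (SD, n = 3) in control. In Chd8 siRNA, Ifit2 was 1 of the 5 interferon response genes under an FDR of 0.05, with a log2 fold change of 0.28 ± 0.055 (SE) and an adjusted p of 0.0226 in edgeR with the block, below 1.5-fold, and Rsad2 had an adjusted p of 0.119. Col1a1, 1 of 5 tested fibroblast and vessel markers, fell in Chd8 siRNA with the block by 1.31 on the log2 scale (SE 0.25, adjusted p of 0.0216 in edgeR, and 1.00 without the block), against 0.283% of all genes called lower. It was 2.56, 12.8, and 44.0 CPM in control and 1.98, 4.46, and 13.2 CPM in Chd8 siRNA, and the groups overlapped.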
